A study of Mus musculus with 384 samples.

Results

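A set of 8 genes of the pericellular and elastic matrix is described here: Sparc, Postn, Fn1, Tnc, Eln, Fbn1, Vcan and Mgp. They were chosen by gene symbol, with earlier results of these data known, and all 8 were found among the 40594 genes counted. The wells came from kidneys of mice aged 8 weeks, dissociated with Liberase TL and sorted one cell to a well. One gate took PDGFRB+CD45- cells and the other PDGFRB+CD45+ cells, each in batch 1 and batch 2, which gave 4 plates of 96 wells. The letters uuo stand in all well names without being spelled out, and no strain, transgene, animal or untreated group is named for any plate. PDGFRB is a receptor of pericytes and fibroblasts, and CD45, the product of Ptprc, is a phosphatase of leukocytes. The title of the series names monocytes, myofibroblasts and kidney fibrosis, and the comparison of the gates bears on which sorted cells carried matrix transcripts.

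Matricellular proteins are secreted into the matrix but act mainly on how cells attach, migrate and respond to growth factors. Sparc, periostin (Postn) and tenascin-C (Tnc) belong to this class, and fibronectin (Fn1) is the adhesive glycoprotein on which collagen and other fibres are laid down. Elastic fibres have a core of elastin (Eln) on a scaffold of fibrillin-1 (Fbn1) microfibrils. Versican (Vcan) is a large proteoglycan that binds hyaluronan, and matrix Gla protein (Mgp) is a small secreted inhibitor of calcification. In fibrotic kidney this matrix is mostly ascribed to fibroblasts, pericytes and the myofibroblasts that carry smooth muscle actin, encoded by Acta2.

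RefSeq promoter windows of build GRCm38.p6, which run from 250 bases before a gene's start to 50 bases after it, were matched for 5 of the 8 genes (Sparc, Postn, Tnc, Fbn1 and Vcan) and for Col1a2 and Acta2. The windows of 3 genes are printed, because Sparc reached 100 counts per 1000000 reads (CPM) in every CD45- well measured while Postn and Tnc reached it in a minority of them. Fbn1 and Vcan, whose windows are not printed, reached it in a minority too. Each is written 5′ to 3′ on the gene's strand, and capitals mark matches to the TATA box TATANAA on either strand. The Sparc window lies at chr11:55420031-55420330 on the minus strand. The Postn window printed is the second of 2 listed starts, chr3:54360857-54361156 on the plus strand, and the Tnc window is the second of 2, chr4:64046887-64047186 on the minus strand. For both genes the window printed is the one that held a TATA box match.
Sparc: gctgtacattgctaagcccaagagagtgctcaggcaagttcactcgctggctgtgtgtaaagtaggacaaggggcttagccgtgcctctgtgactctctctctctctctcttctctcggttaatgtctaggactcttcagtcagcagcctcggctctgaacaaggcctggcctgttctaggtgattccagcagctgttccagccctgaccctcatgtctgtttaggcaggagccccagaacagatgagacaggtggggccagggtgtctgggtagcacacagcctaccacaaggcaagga
Postn: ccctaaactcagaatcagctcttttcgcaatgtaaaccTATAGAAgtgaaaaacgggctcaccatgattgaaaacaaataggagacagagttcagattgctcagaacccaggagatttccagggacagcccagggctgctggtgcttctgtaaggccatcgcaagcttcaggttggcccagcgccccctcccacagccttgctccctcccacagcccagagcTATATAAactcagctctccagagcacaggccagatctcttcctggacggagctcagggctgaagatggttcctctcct
Tnc: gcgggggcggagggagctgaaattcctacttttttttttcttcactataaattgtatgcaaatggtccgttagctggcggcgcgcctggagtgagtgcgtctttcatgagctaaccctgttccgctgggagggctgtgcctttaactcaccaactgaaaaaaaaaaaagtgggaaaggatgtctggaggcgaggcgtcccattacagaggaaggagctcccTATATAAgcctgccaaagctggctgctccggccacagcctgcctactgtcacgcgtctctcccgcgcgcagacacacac
The Postn window held 2 matches, with first bases at -212 and -28 from the start, and the Tnc window held 1 at -29. No match was found in the windows of Sparc, Fbn1, Vcan or Col1a2, nor in the other window of Postn or of Tnc, and the Acta2 window held 1 at position 9 after the start. Of all 32851 promoter windows of this length, 11.3% held a match. Other motifs were searched on both strands as well. The SMAD element GTCTG was found in the windows of Sparc (2 matches), Tnc (2 in the printed window and 1 in the other), Postn (1, in the window not printed), Col1a2 (1) and Acta2 (1), against 49.6% of all windows. The AP-1 site TGANTCA, held by 7.81% of all windows, had no match in any of these windows. The CArG box was searched only as the strict pattern CCWWWWWWGG, where W is A or T. That pattern was held by 1.63% of all windows and by none of these. Near matches, such as ccctatatgg in the Acta2 window, were not counted, so Acta2 is not shown to lack a CArG element. The MCAT element CATTCC, held by 14.7%, had 1 match, in Acta2. These matches describe letters in a window and no binding was measured.

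Reads on genes ran from 5323 to 1246070 per well. Wells with at least 10000 reads and 500 genes were kept, which left 93 and 93 CD45- wells and 92 and 90 CD45+ wells in batches 1 and 2. Values per well are given for wells of at least 50000 reads, 79 and 82 CD45- wells and 76 and 78 CD45+ wells, with median depths of 302826 and 348004 reads in CD45- wells and 287381 and 302747 in CD45+ wells. The 4 plates share all 96 well positions and so their well barcodes, and plates were told apart by the plate index. Each plate is 1 sample, so no p-value was computed, and the intervals given cover counting error only. Levels are in CPM, the reads of a gene divided by all reads on genes of the well or plate and multiplied by 1000000, not divided by transcript length, so a gene is compared across wells and not with another gene. Pdgfrb transcripts were read in 74 of 79 and 73 of 82 CD45- wells but in 3 of 76 and 5 of 78 CD45+ wells, so the receptor named in the gate was nearly absent from the CD45+ wells as RNA. Ptprc was read in 71 CD45+ wells of each batch, and the leukocyte list, 3 or more of 8 leukocyte genes at 100 CPM, was held by 75 of 76 and 78 of 78 of them. Hemoglobin and other red blood cell transcripts moved with the gate. At least 3 of that list's 5 genes reached 100 CPM in 79 of 79 and 56 of 82 CD45- wells, with summed levels of 1390 to 656055 and 34.4 to 25271 CPM, but in 1 and 0 CD45+ wells, where the sums ran from 0 to 1326 and 0 to 673 CPM. Their part in the results below was not tested.

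Summed over plates, transcripts of the matrix genes were mostly those of the CD45- gate. Of the 8 genes 6, Sparc, Postn, Fn1, Tnc, Fbn1 and Vcan, were at least 4-fold higher in CD45- than in CD45+ wells in both batches, and none was so in the other direction. Among all 12882 genes of at least 1 CPM on average, 12.9% were 4-fold higher in CD45- wells in both batches and 4.33% in CD45+ wells. The median log2 ratio (CD45+ over CD45-, on CPM plus 1) of the 8 genes was -2.79 in batch 1 and -4.51 in batch 2, against -0.39 and -0.56 for all genes. With edgeR's TMM factors, which brought the median of all genes to -0.10 in both batches, 3 of the 8 (Sparc, Fbn1 and Vcan) stayed past 4-fold in both, because Postn, Fn1 and Tnc came to -1.61, -1.96 and -1.86 in batch 1. Of the 12882 genes 1336 were then 4-fold higher in CD45- wells in both batches and 674 in CD45+ wells. In a plate sum, fewer cells with a transcript and less of it per cell cannot be told apart, so wells are given as well.

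Sparc, a calcium- and collagen-binding matricellular protein, stood at 16775 CPM (95% Poisson interval 16728 to 16822) in the CD45- plate of batch 1 and 1789 (1773 to 1805) in its CD45+ plate. In batch 2 the levels were 14988 (14946 to 15031) and 2190 (2173 to 2207). The log2 ratios were -3.23 and -2.77. Much of the CD45+ level of batch 2 came from a single well, replicate 18, which held 65.6% of that plate's Sparc reads. Without it the level was 789 CPM and the log2 ratio -4.25. Across single wells the gates overlapped: CD45- wells ran from 349 to 46399 CPM (median 12461) and from 246 to 53429 (median 9971), and CD45+ wells from 0 to 12212 (median 143) and from 10.4 to 32790 (median 124). Sparc was held, meaning present at 100 CPM or more, in 79 of 79 and 82 of 82 CD45- wells.

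Postn encodes periostin, a matricellular ligand of integrins that also binds collagen. Its plate levels were 133 and 286 CPM in CD45- wells and 32.3 and 0.211 CPM in CD45+ wells, with log2 ratios of -2.01 and -7.89. The CD45+ level of batch 1 rested on replicate 5, with 66.7% of the plate's Postn reads, and fell to 11 CPM without that well (log2 ratio -3.48). The ratio of -2.01 lay so close to the 4-fold limit that leaving out any of 63 of the 185 wells of batch 1 ended the call. Most CD45- wells were low, with medians of 5.74 and 15.4 CPM, while the highest reached 3266 and 3051. Postn was held in 14 of 79 CD45- wells (17.7%, exact 95% interval 10.0 to 27.9) and 18 of 82 (22%, 13.6 to 32.5).

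Tnc encodes tenascin-C, a hexameric matricellular protein of tissue remodelling. Plate levels were 104 and 231 CPM in CD45- wells against 21 and 0.281 in CD45+ wells, with log2 ratios of -2.25 and -7.50. One CD45+ well of batch 1, replicate 82, carried 96.2% of that plate's Tnc reads, and without it the level was 0.807 CPM and the ratio -5.86. In CD45- wells the medians were 3.94 and 8.80 CPM and the highest values 1984 and 4750. It was held in 14 of 79 (17.7%, 10.0 to 27.9) and 20 of 82 wells (24.4%, 15.6 to 35.1), again a minority.

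Fn1, the gene of fibronectin, was at 556 and 634 CPM in CD45- wells and at 107 and 41.6 CPM in CD45+ wells, with log2 ratios of -2.36 and -3.90. Replicate 80 of the CD45+ plate in batch 1 gave 82.1% of its Fn1 reads. Without that well the level was 19.9 CPM and the ratio -4.73. In batch 2, the ratio was -4.62 without replicate 18 and -4.60 without replicate 13. CD45- wells spread widely, with medians of 55.5 and 48.6 CPM, upper quartiles of 735 and 579 and highest values of 3922 and 4115. Fn1 was held in 35 of 79 (44.3%, 33.1 to 55.9) and 35 of 82 wells (42.7%, 31.8 to 54.1).

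The elastic fibre genes differed from one another in how far they could be measured. Fbn1, the microfibril scaffold, stood at 304 and 183 CPM in CD45- wells and 0.869 and 4.39 in CD45+ wells, with log2 ratios of -7.35 and -5.09. In batch 2, 72.8% of the CD45+ reads lay in replicate 18 and the ratio was -6.35 without it. Fbn1 was held in 22 of 79 CD45- wells (27.8%, 18.3 to 39.1) and 17 of 82 (20.7%, 12.6 to 31.1), with highest values of 2490 and 1541 CPM. Eln was all but missing: it had 316 and 74 reads in the CD45- plates, of which 94% and 94.6% came from 1 well each, replicate 35 of batch 1 with 315 CPM and replicate 42 of batch 2 with 112 CPM. Only 9 of 79 and 3 of 82 CD45- wells had any Eln read, and the CD45+ plates had 1 and 3 reads. Its log2 ratios of -3.50 and -1.59 came to -0.69 and -0.03 without those wells, so nothing is read from them.

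Vcan, the hyaluronan-binding proteoglycan, gave nearly the same plate levels in both batches, 119 (115 to 123) and 120 (116 to 124) CPM in CD45- wells and 0.189 and 0.141 CPM in CD45+ wells. These intervals leave out the spread over wells. The top CD45- well of each batch gave 19.8% and 18.1% of the reads, and the levels were 96.8 and 100 CPM without it. The log2 ratios of Vcan were -6.66 and -6.73, and leaving out any one well kept them between -6.36 and -6.78. It was held in 11 of 79 (13.9%, 7.16 to 23.5) and 12 of 82 CD45- wells (14.6%, 7.80 to 24.2), and the highest reached 1974 and 2122 CPM. In the CD45+ plates Vcan had 5 and 4 reads in all.

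Mgp, the calcification inhibitor, differed between batches as well as gates. The CD45- plates stood at 9946 and 4818 CPM and the CD45+ plates at 2867 and 317, with log2 ratios of -1.79 and -3.92, so it missed the 4-fold limit in batch 1. Leaving out any of 3 CD45+ wells of batch 1 (replicates 76, 82 and 91) brought that ratio past the limit, to -2.18, -2.06 and -2.30, and replicate 18 of batch 2, with 81.9% of its plate's reads, took the other to -6.30. Single CD45- wells ran from 111 to 85302 CPM (median 5215) and from 53.5 to 28171 (median 2528). CD45+ wells ran from 17.4 to 93426 (median 112) and from 0 to 5924 (median 9.65), so the CD45+ gate held the well with the most Mgp of all plates.

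**Figure D1:**
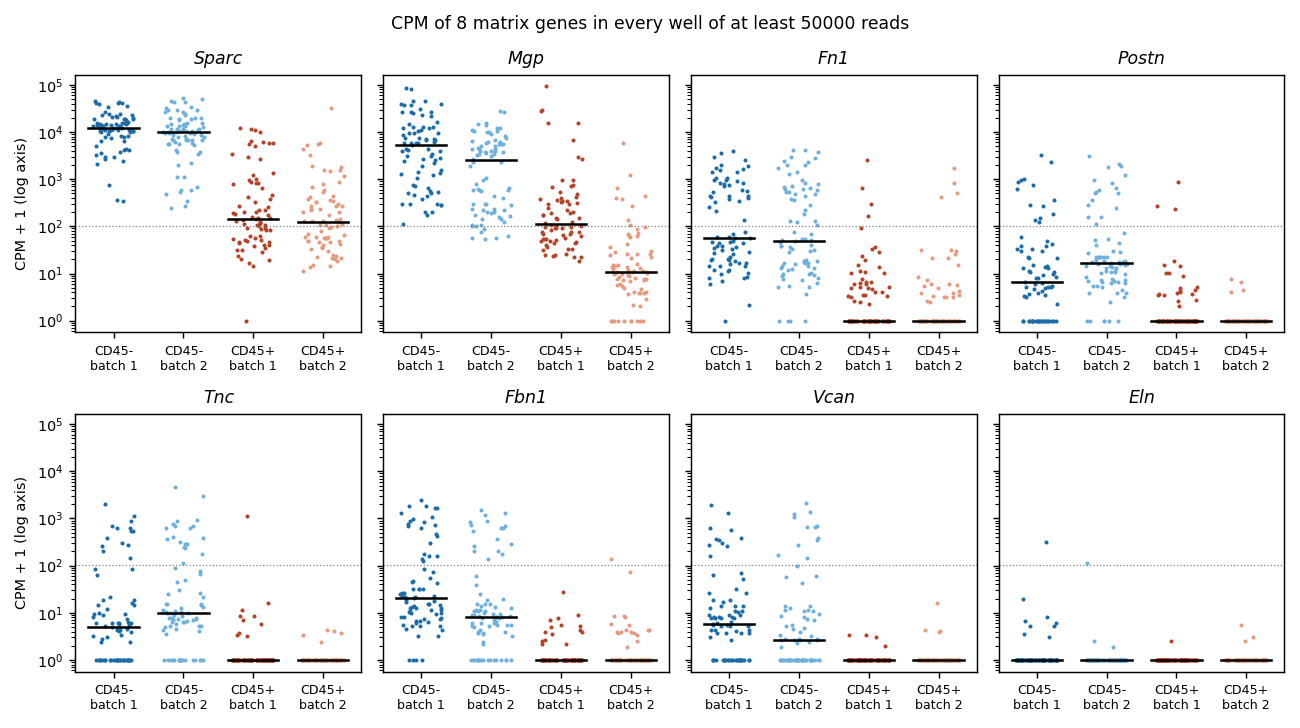
Each point is 1 well of at least 50000 reads, plotted as CPM plus 1 on a log axis for each gene and plate. Bars are medians and the dotted line is 100 CPM; Sparc lies above the line in every CD45- well, with medians of 12461 and 9971 CPM, while Postn, Tnc, Fbn1 and Vcan rise above the line in a minority of CD45- wells and in 4 CD45+ wells or fewer per plate.

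Genes that work with these proteins were taken from lists chosen with earlier results of these data known. Their counts are therefore a description and no independent test. Of 18 other matricellular genes 10 were 4-fold higher in CD45- wells in both batches and none in CD45+ wells, with median log2 ratios of -3.67 and -3.62. The most abundant of the 10 called were Sparcl1, the closest relative of Sparc (645 and 614 CPM against 55.2 and 50.2), Aebp1, a collagen-binding protein (605 and 690 against 41.8 and 19.4), and the thrombospondin gene Thbs2 (173 and 340 against 0.227 and 4.95). Their CD45+ levels of batch 2 came mostly from 1 well each, replicates 68, 18 and 12, and were 15.8, 1.76 and 0.955 CPM without it. Spp1, the most abundant of the 18, was not called, at 2341 and 2765 against 2833 and 1325 CPM. Tgfbi was higher in CD45+ wells in both batches, with log2 ratios of 2.84 and 1.47, but missed the 4-fold limit in batch 2. Of 19 genes of elastic fibre assembly 16 were higher in CD45- wells and none in CD45+ wells, with medians of -4.04 and -3.27. They were led by the microfibril-associated genes Mfap5 (4565 and 2386 against 23.8 and 485 CPM), Mfap4 (624 and 896 against 2.79 and 209) and Mfap2 (703 and 427 against 19.2 and 12). Replicate 18 gave 94.7%, 94.4% and 94.7% of their CD45+ reads in batch 2, and without it the levels were 26.8, 12.1 and 0.661 CPM. In batch 1 the CD45+ levels were 3.61, 0.385 and 7.88 CPM without replicates 76, 82 and 91, the top well of each gene. Assembly genes of the elastic fibre were therefore read in plates where its core gene, Eln, was close to 0. Emilin2 of this list leaned to CD45+ wells, with log2 ratios of 1.85 and 4.20. Single wells gave 83.1% and 95.7% of its CD45+ reads in batches 1 and 2. Of 12 partners of versican and hyaluronan (synthases, link proteins, proteases of the Adamts family, the receptor gene Cd44 and Tnfaip6) 2 were called higher in CD45- wells and none in CD45+ wells, with medians of 0.05 and -2.18. They were Adamts4, a protease that cuts versican (95.3 and 55.5 against 0 and 0.597 CPM), and Has2, a hyaluronan synthase (11.2 and 5.13 against 0.0755 and 0 CPM). The Has2 call rested on 1 CD45- well per batch, replicates 40 and 87, with 97.0% and 99.4% of the reads, and the levels were 0.343 and 0.0324 CPM without them, so nothing is read from it. Of 13 integrin and syndecan receptor genes 2 were, Sdc2 (204 and 373 against 30.6 and 19.5) and Sdc1 (30.0 and 73.2 against 0.151 and 4.01), and the list's medians were -0.91 and -1.23. In CD45+ wells of batch 2, Sdc2 was at 0.705 CPM without replicate 67 and Sdc1 at 0.331 without replicate 18, and in batch 1 Sdc2 was at 11.7 without replicate 91. Cd44 and Sdc4 leaned to CD45+ wells without a call, with log2 ratios of 1.12 and 1.74 for Cd44 and 2.44 and 0.55 for Sdc4. All of these counts stand against the 12.9% and 4.33% of genes given above. The 2 of 12 and 2 of 13 lie near that 12.9%, so the counts of those 2 lists are not read further. The shares are of genes of at least 1 CPM on average, which 17 of the 18 matricellular genes and 10 of the 12 partners reached.

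Within the CD45- wells the 5 genes held by a minority were spread unevenly. At least 1 of Postn, Fn1, Tnc, Fbn1 and Vcan was held in 43 of 79 wells of batch 1 and 43 of 82 of batch 2, at least 2 in 30 wells of each batch, and all 5 in 2 wells of each. Fn1 was held in most wells that held another of the 5, and in 44.3% and 42.7% of all CD45- wells. For each of the 5 genes the wells that held it had the higher median depth in both batches. For Postn the medians were 397816 and 580756 reads, against 276863 and 273322 in the other wells. Fn1 was held in 12 of 14 and 15 of 18 Postn wells, in 10 of 14 and 15 of 20 Tnc wells, in 18 of 22 and 13 of 17 Fbn1 wells, and in 11 of 11 and 8 of 12 Vcan wells. Those wells made up 34.3% and 42.9% (Postn) and 51.4% and 37.1% (Fbn1) of all Fn1 wells. Postn and Tnc met less evenly between batches, with 2 wells holding both in batch 1 (14.3% of the wells of either gene) and 10 in batch 2 (55.6% of Postn wells and 50% of Tnc wells).

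Collagen I, the sum of Col1a1 and Col1a2, is the main fibrillar collagen of scar tissue, and Acta2 marks contractile cells. Over CD45- wells collagen I and Acta2 themselves were weakly related, with a Spearman rho of 0.0957 over 79 wells in batch 1 and 0.427 over 82 wells in batch 2. Of the 8 matrix genes 7 had a higher rho with collagen I than with Acta2 in both batches, the exception being Tnc. Of the 7 genes that reached 100 CPM in at least 10 wells of each batch, 6 did so, against 22.2% of the 1742 genes of that kind. A rho with collagen I of 0.3 or more in both batches was found for 5 of them (Sparc, Mgp, Fn1, Postn and Fbn1), against 5.51% of those genes. These correlations describe wells of the same plates, which share a library pool and differ in depth, and no test was attached to them.

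Sparc, Mgp and Fn1 followed collagen I most closely. Sparc had a rho of 0.604 and 0.744 with collagen I and of 0.0081 and 0.301 with Acta2 in batches 1 and 2. Mgp had 0.730 and 0.794 with collagen I and 0.242 and 0.523 with Acta2, and Fn1 had 0.619 and 0.657 with collagen I and 0.169 and 0.412 with Acta2. Their rho with reads per well was lower than that with collagen I, at 0.232 and 0.247 for Sparc, 0.0077 and 0.283 for Mgp and 0.0635 and 0.361 for Fn1. In batch 1 the relation of Mgp rested partly on wells that held the endothelial marker list: without them its rho with collagen I was 0.290 over 54 wells, and in batch 2 it was 0.585 over 56. In the same wells Fn1 had 0.446 and 0.606 and Sparc 0.627 and 0.809.

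Postn and Fbn1 were related to collagen I more loosely and Vcan and Tnc least. Postn had a rho of 0.361 and 0.428 with collagen I and 0.0202 and 0.116 with Acta2. Fbn1 had 0.403 and 0.384 against 0.116 and 0.277, and without endothelial-list wells its rho with collagen I was 0.267 and 0.336. Vcan had 0.182 and 0.345 against 0.0703 and 0.142, and without endothelial-list wells 0.234 and 0.179 against 0.105 and 0.0776. Tnc was as near to Acta2 as to collagen I in batch 1, with 0.239 for collagen I and 0.260 for Acta2, and had 0.280 and 0.196 in batch 2. Without endothelial-list wells Tnc had the higher rho with Acta2 in both batches, 0.316 and 0.250 against 0.0863 and 0.166. Over all these CD45- wells the rho with reads per well was -0.0646 and 0.216 for Postn and 0.0277 and 0.272 for Fbn1. For Vcan it was 0.148 and 0.170, and for Tnc -0.0521 and 0.295. In batch 2 it exceeded the rho with Acta2 for Postn and Vcan, and for Tnc that with collagen I as well. Such low values in sparse counts are not read further, and Eln, with a rho of 0.114 and 0.0962 with collagen I, rested on 1 well per batch.

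**Figure D2:**
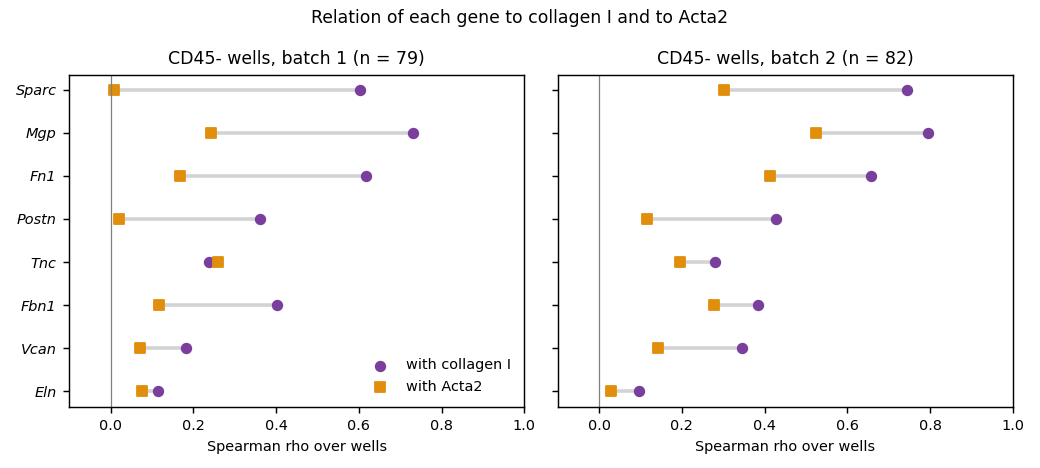
Spearman rho of each gene over CD45- wells with collagen I (Col1a1 plus Col1a2, circles) and with Acta2 (squares), batch 1 with 79 wells on the left and batch 2 with 82 on the right. The grey line joins both values of a gene; the circles lie to the right for all genes in batch 2 and for all but Tnc in batch 1.

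The genes most like each member over the same wells were sought among 1649 other genes of that kind, without mitochondrial, ribosomal, hemoglobin, predicted and pseudogenes, by the smaller rho of both batches. For Sparc they were Col1a2 (0.624 and 0.740), Col1a1 (0.563 and 0.737) and Col3a1 (0.555 and 0.745), and for Fn1 the same collagens (Col1a2 with 0.660 and 0.678). Mgp was nearest to Bgn, the proteoglycan biglycan (0.771 and 0.781), then Lgals1 (0.710 and 0.759) and Col1a1 (0.705 and 0.769). Fbn1 was nearest to Col1a2 (0.419 and 0.454), Col3a1 and Bgn. Postn was nearest to Col1a1 (0.412 and 0.420), Serpinf1 (0.401 and 0.398) and Mfap5 (0.339 and 0.352). Tnc and Vcan had neighbours other than collagens: Lgals1 (0.411 and 0.504), Tpm1, a tropomyosin (0.357 and 0.373), and Flna, an actin crosslinker (0.356 and 0.391), for Tnc, and Timp1, a protease inhibitor (0.359 and 0.405), Pmepa1 and Arf4 for Vcan. For Eln the highest were Znrd1, Col14a1 and Mfap4, the first with 0.273 and 0.266, on 9 and 3 wells with a read.

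Wells with little collagen I seldom held these genes, Sparc and Mgp apart. The 25 and 26 CD45- wells that held the endothelial list had Col1a1 medians of 248 and 226 CPM. Only 1 and 0 of them reached 1000 CPM of Col1a1, and the counts that follow were not repeated without them. The 20 CD45- wells of batch 1 with least collagen I (58.8 to 589 CPM) held no Fn1, Postn, Tnc or Vcan at 100 CPM, and Fbn1 in 1 well. In batch 2 the 21 wells with least collagen I (102 to 379 CPM) held Fn1 in 2 wells, Tnc, Fbn1 and Vcan in 1 each, and Postn in none. The 20 wells with most collagen I in batch 1 (14169 to 66128 CPM) held Fn1 in 15, Fbn1 in 11, Postn in 7, Vcan in 7 and Tnc in 5, and the 21 of batch 2 (11326 to 71870 CPM) in 17, 12, 14, 5 and 9. Every CD45- well that held Postn had at least 4217 CPM of collagen I. Even at the highest collagen I, then, each of these genes was missing at 100 CPM from some wells. Sparc behaved otherwise at the low end: its median was 10199 and 6647 CPM in the wells with least collagen I, and 22009 and 26012 CPM in those with most. Mgp had medians of 448 and 121 CPM in the former and 9237 and 5655 in the latter.

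**Figure D3:**
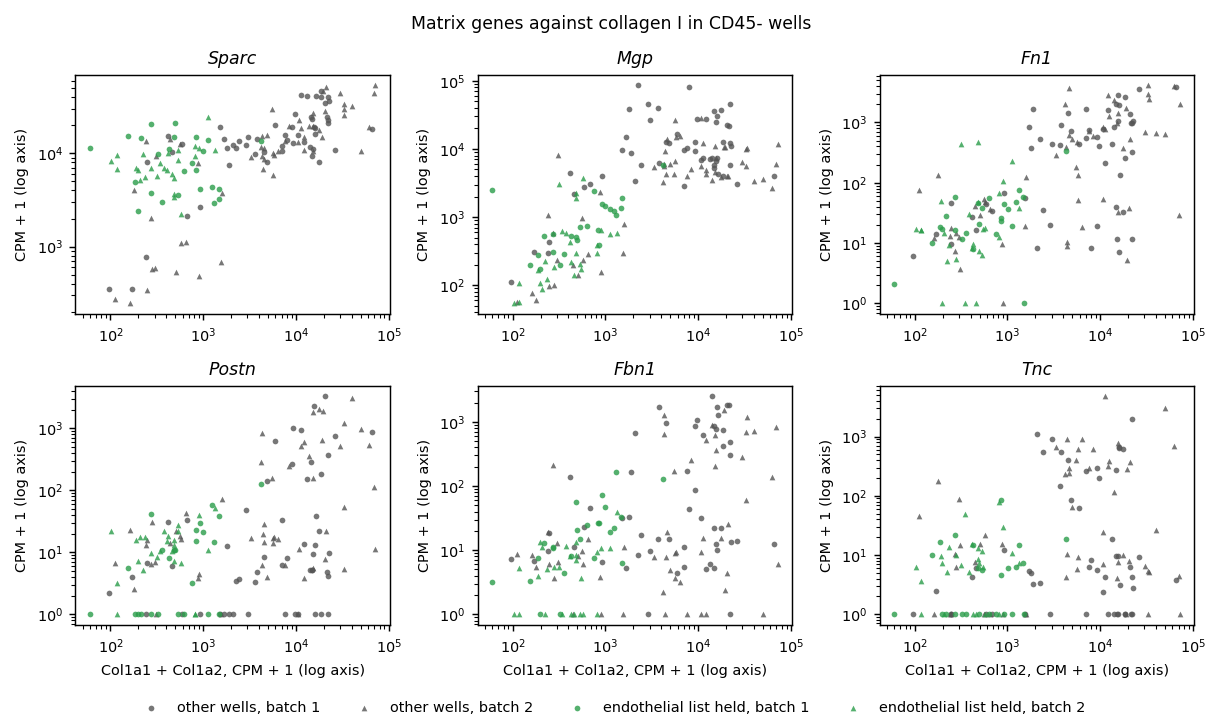
CPM plus 1 of 6 genes against that of Col1a1 plus Col1a2 in each CD45- well, both on log axes, with circles for batch 1, triangles for batch 2 and green for wells that held the endothelial marker list. Sparc stays near 10000 CPM in many wells of low collagen I, among them the green ones, whereas Fn1, Postn and Tnc exceed 100 CPM mainly above 1000 CPM of collagen I.

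Almost all wells carried some collagen I and Acta2, so that at 100 CPM 67 of 79 and 51 of 82 CD45- wells held both. A limit of 1000 CPM, chosen after the data were seen, divided them more evenly. In batch 1, 26 wells had both, 26 collagen I only, 6 Acta2 only and 21 neither, and in batch 2 the numbers were 18, 24, 7 and 33. Such sets are ranges of a level and not cell types. Col1a1 reached 1000 CPM in 1 of 25 and 0 of 26 endothelial-list wells, and the sets were not counted again without those wells. Fn1 was held in 21 of 26 wells with both (80.8%, 60.6 to 93.4) and 14 of 26 with collagen I only (53.8%, 33.4 to 73.4) in batch 1, and in 15 of 18 (83.3%, 58.6 to 96.4) and 16 of 24 (66.7%, 44.7 to 84.4) in batch 2. Without collagen I at 1000 CPM it was held in 0 of 6 wells with Acta2 only and 0 of 21 with neither in batch 1, and in 2 of 7 and 2 of 33 in batch 2.

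The other genes were likewise held mainly where collagen I reached 1000 CPM. Postn was held in 10 of 26 wells with both (38.5%, 20.2 to 59.4) and 4 of 26 with collagen I only (15.4%, 4.36 to 34.9) in batch 1, and in 11 of 18 (61.1%, 35.7 to 82.7) and 7 of 24 (29.2%, 12.6 to 51.1) in batch 2. No CD45- well under 1000 CPM of collagen I held it, neither the Acta2-only wells nor the wells with neither. Tnc was held in 10 and 4 of 26 in batch 1, and in 10 of 18 and 9 of 24 in batch 2, and in 1 well with neither. Fbn1 was held in 12 and 9 of 26 in batch 1 and in 10 of 18 and 6 of 24 in batch 2, and in 1 Acta2-only well per batch. Vcan was held in 6 and 5 of 26, and in 7 of 18 and 4 of 24, and in 1 well with neither in batch 2. The share was higher with both transcripts than with collagen I alone for all 5 genes in both batches, but the intervals of every such pair overlap. Wells with both were also deeper, with medians of 397816 and 485278 reads against 235247 and 307464. With every well thinned to 50000 reads the counts for Fn1 were 21 and 16 of 26 in batch 1 and 14 of 18 and 16 of 24 in batch 2, and for Postn 9 and 4 of 26, and 10 of 18 and 7 of 24.

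**Figure D4:**
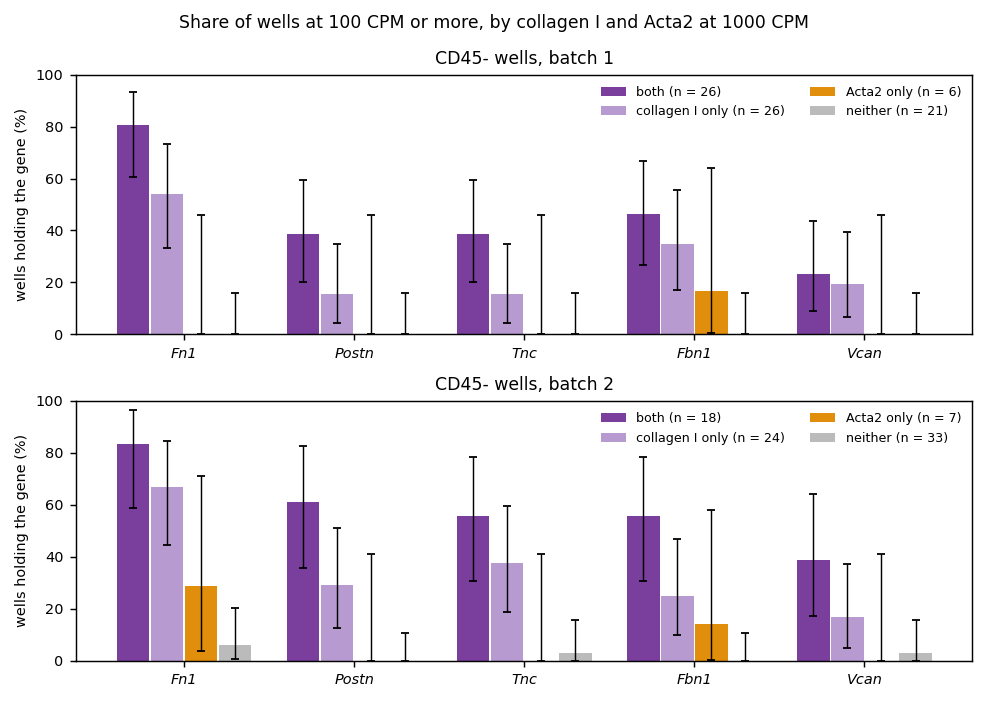
Bars give the percentage of CD45- wells with at least 100 CPM of each gene, grouped by whether collagen I and Acta2 reached 1000 CPM, and lines are exact 95% intervals. Shares stand highest in wells with both, such as 80.8% and 83.3% for Fn1, and lie at 0 in most sets without collagen I, the highest there being 28.6% for Fn1 in 7 Acta2-only wells of batch 2.

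Levels were then set beside marker lists. The endothelial list (3 or more of 10 genes at 100 CPM) was held by 25 and 26 CD45- wells, the fibroblast list by 21 and 24, the list of pericytes or smooth muscle by 6 in each batch, and none of the 3 lists by 32 and 29. Wells near the limit were many, with 18 and 25 at 2 fibroblast markers and 13 and 14 at 3. Sparc was held in all endothelial-list wells, at 2394 to 20938 CPM (median 7929) in batch 1 and 2237 to 24638 (median 6981) in batch 2. In fibroblast-list wells it ran from 2956 to 46399 (median 21401) and from 1101 to 53429 (median 15552), so the ranges overlap while the medians are higher. Endothelial-list wells held Mgp too, in 25 of 25 and 23 of 26 (at 1000 CPM in 10 and 4), but seldom the other genes: Fn1 was held in 1 of 25 and 4 of 26, Postn in 1 and 0, Tnc in 0 and 0, Fbn1 in 2 and 0 and Vcan in 1 and 0. Fibroblast-list wells held Fn1 in 14 of 21 and 16 of 24, Fbn1 in 12 and 7, Postn in 7 and 10, Tnc in 4 and 10 and Vcan in 5 and 5.

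Mgp had medians of 653 and 259 CPM in endothelial-list wells, 7458 and 6007 CPM in fibroblast-list wells, and 3079 and 3020 CPM in wells of the pericyte or smooth muscle list. Fn1 was also found outside these lists, since 19 of the 32 wells of batch 1 and 13 of the 29 of batch 2 with none of the 3 lists held it, with medians of 427 and 52.7 CPM. The few CD45- wells under 1000 CPM of Sparc stood apart. They numbered 3 and 8, held none of the endothelial, fibroblast and pericyte lists, and 2 and 4 of them held the list of tubule epithelium, which no other CD45- well held. A matrix gene other than Sparc and Mgp was held in 0 and 1 of them. These wells were singled out after their values were seen.

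The CD45+ gate was then searched well by well. At 100 CPM at least 1 of the 8 genes was held in 57 of 76 wells of batch 1 (75%, 63.7 to 84.2) and 46 of 78 of batch 2 (59%, 47.3 to 70). Nearly all of this was Sparc (48 and 44 wells) and Mgp (41 and 9 wells). Near-empty wells of the same plates held reads of both genes too. The 4 and 6 CD45+ wells left out for depth, with 6324 to 9740 reads, held 6 to 10 and 11 to 38 Sparc reads each and 13 to 38 and 0 to 10 Mgp reads, against medians of 27.5 and 32.5 Sparc reads and 30.5 and 3 Mgp reads in the deep CD45+ wells. Where the reads of the near-empty wells came from was not tested. A higher limit of 1000 CPM, at which 19 and 14 wells held a gene, is used for Sparc and Mgp as well.

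At 1000 CPM Sparc was held in 16 of 76 CD45+ wells of batch 1 (21.1%, 12.5 to 31.9) and 12 of 78 of batch 2 (15.4%, 8.21 to 25.3). Collagen I was below 100 CPM in 11 and 8 of them. The wells fell into 3 kinds that did not overlap. In each batch 6 held the endothelial list, with Sparc at 2742 to 11836 CPM (median 6050) and 1489 to 5780 (median 3809); they were 6 of the 6 and 6 of the 8 CD45+ wells that held that list. Another 4 wells of batch 1 and 1 of batch 2 had at least 1000 CPM of collagen I, with Sparc at 2969 to 12212 and at 32790 CPM. The other 6 and 5 wells had neither, with Sparc at 1026 to 5911 (median 2420) and 1187 to 5336 (median 1560) CPM. The leukocyte list was held in 15 of 16 and 12 of 12 of these Sparc wells, and in 75 of 76 and 78 of 78 CD45+ wells in all. Cd74, a chaperone of antigen presentation, reached 100 CPM in all of them, as it did in all 76 and 78 CD45+ wells. In the 4 collagen I wells of batch 1, replicates 5, 76, 82 and 91, Cd74 was at 341, 1845, 458 and 417 CPM. Tyrobp was at 182, 258, 193 and 311 CPM there. Replicate 18 of batch 2 had 8325 and 3531 CPM of Cd74 and Tyrobp. Whether a well held more than 1 cell was not tested.

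Endothelial-list wells of the CD45+ gate had little of the other genes. Postn, Fn1, Tnc, Fbn1, Vcan and Eln each stayed at or below 6.37 CPM in all 6 and 8 of them. Mgp exceeded 1000 CPM in 1, replicate 86 of batch 1, which had 11836 CPM of Sparc, 2884 of Mgp, 2877 of Acta2 and 1824 of the endothelial gene Pecam1. Replicate 50 of batch 1 had 10221 CPM of Sparc with 516 of Pecam1 and no Ptprc read, and was the well that missed the leukocyte list. In batch 2, replicate 68 combined 5606 CPM of Sparc with 1123 of Acta2 and 1373 of the endothelial receptor gene Kdr, and had 238 CPM of Pdgfrb, the single CD45+ well above 100.

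Mgp at 1000 CPM was found in 8 CD45+ wells of batch 1 (10.5%, 4.66 to 19.7) and 2 of batch 2 (2.56%, 0.312 to 8.96). Of these, 4 in batch 1 and 1 in batch 2 were the collagen I wells. They were replicates 5, 76, 82 and 91 of batch 1, with 15160, 93426, 29334 and 28372 CPM of Mgp, and replicate 18 of batch 2 with 5924 CPM. These same 5 wells therefore carried Sparc, Mgp and collagen I together. Replicate 70 of batch 1 had 15841 CPM of Mgp with 4019 of Acta2 and 501 of collagen I. Replicates 58, 74 and, in batch 2, 77 had 6776, 2693 and 1247 CPM of Mgp and 54.2 CPM of collagen I or less.

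Fibronectin transcripts were held by few CD45+ wells, with and without collagen I. Fn1 was held in 4 of 76 wells of batch 1 (5.26%, 1.45 to 12.9) and 4 of 78 of batch 2 (5.13%, 1.41 to 12.6). In batch 1 these were replicates 27, 39, 41 and 80 with 304, 649, 167 and 2556 CPM, and all 4 had less than 100 CPM of collagen I. In batch 2 they were replicates 13, 18, 66 and 67 with 1718, 408, 518 and 813 CPM, with collagen I at 29.1, 32256, 290 and 603 CPM. So 0 of 4 Fn1 wells of batch 1 and 3 of 4 of batch 2 had 100 CPM of collagen I, which 10 of 76 and 25 of 78 CD45+ wells had in all. Replicate 80, the highest, had 8029 CPM of Cd74, 5444 of the complement gene C1qa and 342 of Ptprc, and its Sparc level was 13.1 CPM. All 4 wells of each batch held the leukocyte list, and 2 and 3 of them the macrophage list, which 56 of 76 and 71 of 78 CD45+ wells held. At the same plate positions the CD45- plate held Fn1 in 2 of 4 wells of batch 1 (replicates 27 and 39, the former with 42848 reads) and in 1 of 4 of batch 2 (replicate 66), against 35 of 79 and 35 of 82 of its deep wells.

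Periostin and tenascin-C were held in CD45+ wells of batch 1 only. Postn was held in 3 of 76 CD45+ wells (3.95%, 0.822 to 11.1), replicates 5, 13 and 91 with 871, 230 and 271 CPM, and in 0 of 78 wells of batch 2, which allows a share of up to 4.62% by the exact interval. Replicates 5 and 91 were collagen I wells with 6633 and 1617 CPM and had Acta2 at 5269 and 1694 CPM, while replicate 13 had 19.2 CPM of collagen I. Tnc was held in replicate 82 alone, at 1133 CPM, with 3338 CPM of collagen I and 2.12 CPM of Acta2, and in 0 of 78 wells of batch 2. At those positions the CD45- plate had 9.74, 13.5 and 21.8 CPM of Postn and 82.9 CPM of Tnc, so it held neither gene there. Whether batch 2 differed from batch 1 cannot be read from such counts.

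Fibrillin-1, versican and elastin were close to 0 in CD45+ wells. Fbn1 was held in 1 well, replicate 1 of batch 2, at 139 CPM with 595 CPM of collagen I, and the next was replicate 18 with 73 CPM. In batch 1 its highest level was 26.1 CPM. Vcan reached at most 2.41 and 14.9 CPM and Eln 1.50 and 4.58 CPM, so that both were held in 0 of 76 and 0 of 78 wells, which allows shares of up to 4.74% and 4.62%.

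Few wells of the CD45+ gate thus joined several of these genes with collagen I. Collagen I reached 1000 CPM in 5 and 6 CD45+ wells, of which 4 and 1 had Sparc above 1000 CPM. Replicate 5 of batch 1 had 12212 CPM of Sparc, 871 of Postn, 15160 of Mgp, 4351 of Col1a1 and 5269 of Acta2, with 4.58 CPM of Ptprc and 341 of Cd74. Replicate 18 of batch 2, the deepest well of all with 1246070 reads, had 32790 CPM of Sparc, 408 of Fn1, 73 of Fbn1, 5924 of Mgp and 23586 of Col1a1, but 0.803 CPM of Acta2, together with 8325 of Cd74 and 1428 of C1qa. In neither well was a Pdgfrb read found.

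**Figure D5:**
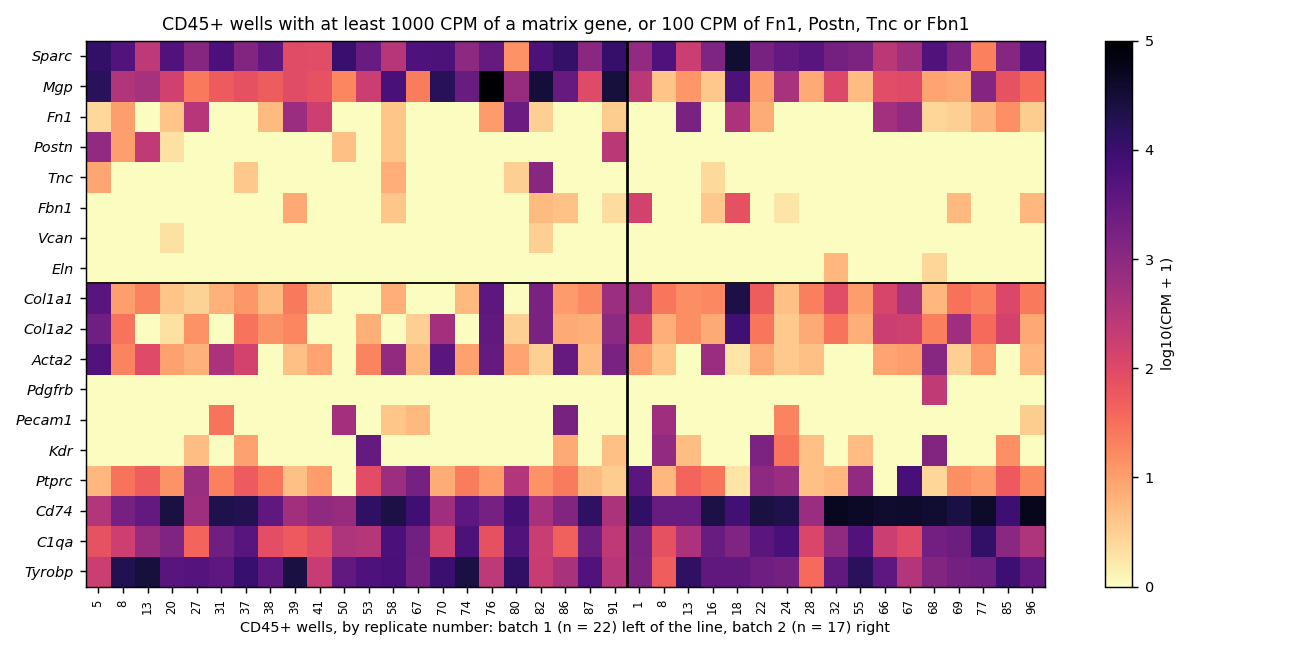
Columns are the CD45+ wells with at least 1000 CPM of a matrix gene or 100 CPM of Fn1, Postn, Tnc or Fbn1 (22 wells of batch 1, 17 of batch 2), rows are genes, and colour is log10 of CPM plus 1. Sparc is dark in most columns, collagen I in few, such as replicates 5, 76, 82 and 91 of batch 1 and 18 of batch 2, and Cd74 in nearly all.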

How the data were processed

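Single cells from kidney were sorted by PDGFRB and CD45 into 96-well plates, made into cDNA with the Clontech SMARTer kit and sequenced on a HiSeq2500, per the labels' protocols. The deposited values are whole-number read counts per gene and well, which the authors made from their reads. The submitters' processing notes name STAR 3.0.4, Subread and featureCounts 1.4.5. The genome build and the annotation are not given in the sources used here. No molecular identifiers are mentioned, so reads are not independent molecules.

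Repeated gene lines were dropped, wells under 10000 reads or 500 genes were left out, and counts were turned into CPM with Python 3.11.15, numpy 2.4.6, pandas 2.3.3 and scipy 1.17.1. Plate levels are reads summed over kept wells, compared as log2(CPM + 1), which understates the change of low genes. A call means 4-fold in both batches, among genes of 1 CPM or more on average. TMM factors came from edgeR 4.0.16 in R 4.3.3, which was used for nothing else. Wells of 50000 reads or more entered the values per well, and were also thinned to 50000 reads, where 5 reads or more counted as held. Intervals are exact 95% Poisson or binomial ones. No animal is named, so each plate is 1 sample and no test was made. The calculation was tested on simulated data.

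The genes and the gene and marker lists were chosen with earlier results of these data known. Of each list the 3 or fewer called genes with the highest mean CPM over the 4 plates are named, and of each gene's neighbours the 3 with the highest smaller rho. Spp1, Tgfbi, Emilin2, Cd44 and Sdc4 are named besides, chosen after their values were seen. Alternatives were TMM factors, the mean of wells, pseudocounts, well and gene filters, other CPM limits, Pearson's r, Col1a1 or Col3a1 in place of collagen I, and leaving out each well in turn.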

Additional observations from a re-analysis of the deposited data

Results flagged for a closer look

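Transcripts of 7 of the 8 genes were also read in the 16 wells left out for depth, which the comparisons do not use. Over 123680 reads in these wells Sparc had 902 reads, Mgp 320, Fn1 23, Postn 9, Fbn1 9, Vcan 6 and Tnc 4, and Eln had none. Sparc made up 22634 and 12686 CPM in the left-out CD45- wells of batches 1 and 2, and 921 and 2393 CPM in the left-out CD45+ wells. The former lie near the levels of the kept CD45- plates, 16775 and 14988 CPM, and the latter are 31 and 112 reads in all. Col1a1 stood at 713 and 919 CPM in the left-out CD45+ wells. Where these reads came from was not tested.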

How the results depend on the processing

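Of 144 log2 ratios recomputed under other settings, 133 kept their direction and side of the 4-fold limit, 8 no longer passed it, 3 newly passed it and none changed sign. With TMM factors 3 genes in place of 6 were 4-fold higher in CD45- wells in both batches. The count was 7 with the mean of wells' CPM (adding Mgp) or a pseudocount of 0.1 (adding Eln), 5 with a pseudocount of 5 or with repeated gene lines kept (losing Postn), and 5 to 7 when each well was left out in turn. The same call over the 12882 genes moved as well. It took in 1336 genes with TMM factors, 1720 with the mean of wells and 1633 with repeated lines kept. With pseudocounts of 0.1 and 5 it took in 2110 and 681. Over all genes 1663 passed with no filter and 956 among genes of 10 CPM or more, as fewer genes were tested. Of 224 correlations 219 were counted as the same and 5 as moved. The 219 took in shifts of some size in both directions. For Tnc the rho with collagen I in batch 1 fell from 0.239 to 0.0863 without endothelial-list wells. For Fbn1 that in batch 2 rose from 0.384 to 0.540 with wells thinned to 50000 reads. Larger falls came without endothelial-list wells, where Mgp went from 0.730 to 0.290 in batch 1 and from 0.794 to 0.585 in batch 2. When each well was left out, 6 to 8 of the 8 genes lay closer to collagen I than to Acta2. At 1000 CPM, 19 in place of 57 CD45+ wells of batch 1 and 14 in place of 46 of batch 2 held a gene, and 26 in place of 67 and 18 in place of 51 CD45- wells had both collagen I and Acta2, as a higher limit takes fewer wells. The last limit was chosen after the data were seen. Of 90 counts of CD45+ wells 76 stayed within 1.5 times and 14 did not. Counts of 0 at 100 CPM, such as those of Eln and Vcan in both batches, could not change at a higher limit. They are among the 76 there. Beyond the changes of limit and filter, the cause was not tested. No paired analysis was possible because no result comes from a test and well numbers mark plate positions. Shares in wells are limited by their number, and 0 of 76 wells allows up to 4.74%.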
